A study of Daphnia magna with 24 samples.

Results

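The features described here are a compound eye opsin, DM02717P2, and an arrestin 2, DM01248P1, which are 2 of the 14338 features on each array. They were named by their identifiers, and they were chosen by results of these same data. The opsin stood out in animals exposed to dissolved silver against unexposed animals, so the values of that contrast and of nanowires against dissolved silver describe the pair and carry no test. The authors' deposited table lists arrestin only for the silica-coated nanowires. Tests that involve those groups are therefore not independent of how arrestin came to be named. No other feature shares an identifier stem with either member.

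The arrays measured RNA of whole Daphnia magna, a water flea widely used to assess toxicity in fresh water, on 24 one-colour arrays in 6 groups of 4. The exposed animals, in groups of about 20, were kept for 24 h with silver at 1/10 of the LC50, the concentration lethal to 50 percent of animals. They received ionic silver (Ag+), long PVP-coated silver nanowires (L-PVP-NW), long silica-coated nanowires (L-SiO2-NW), short PVP-coated nanowires (S-PVP-NW) or short silica-coated nanowires (S-SiO2-NW). PVP is polyvinylpyrrolidone, a polymer coating. The Control group received medium alone, and all groups shared COMBO medium with 16 h of light per day. The labels give no strain, age or sex, and do not say whether replicates came from separate cultures, so p-values measure the spread between these samples, which may be technical.

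An opsin is a membrane receptor that carries a retinal chromophore and is switched on by light. In arthropod photoreceptors the activated opsin passes the signal through a G protein and phospholipase C to ion channels, and arrestin binds the activated opsin and ends its signalling. Daphnia has a single compound eye, formed by fusion of paired eyes, and a small simple eye beside it. Because RNA came from whole animals, the eye as the source of the signal was not measured. A change in the number of photoreceptors and a change in RNA per photoreceptor cannot be told apart.

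The names rest on database matches in the authors' deposited table. In the authors' deposited table the opsin feature matched the crustacean opsin BCRH2 over 62 aligned residues, 19 of them identical, with an E value of 3e-08. The arrestin feature matched a honey bee arrestin 2 in the authors' deposited table over 51 residues, 25 of them identical, with an E value of 1e-04. Both had much longer matches to Daphnia pulex sequence assemblies in the authors' deposited table, with 344 of 402 and 467 of 531 positions identical. Photoreceptor markers were looked for by name among the 1024 features with a description in the authors' deposited table, of 14338 on the array. Opsins and arrestins were found there. No feature there was named as phospholipase C, a G protein alpha subunit, a TRP channel or chaoptin. The other features had no name to search, so the label of an eye pair could not be checked against those other markers.

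The probe sequences show what each value measures and how far related features are read by separate probes. They are given 5′ to 3′ as listed in the authors' deposited table, for both members and for the other visual pigment and the other arrestin with a significant match, in lower case with no part marked. Each is 50 bases long.
opsin DM02717P2: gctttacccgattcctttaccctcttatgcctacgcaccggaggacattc
arrestin 2 DM01248P1: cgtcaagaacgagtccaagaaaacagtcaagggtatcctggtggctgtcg
long-wavelength visual pigment DM01842P2: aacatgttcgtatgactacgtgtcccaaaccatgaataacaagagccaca
arrestin 1 DM03055P2: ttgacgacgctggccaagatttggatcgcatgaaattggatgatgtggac
Both member probes have a GC content of 52%. Among the probes of all 6 photoreception features, the longest run shared by any of the 15 pairs on either strand was 4 to 8 bases, so no pair of these probes shared a long stretch of sequence.

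Values are scanner intensities as deposited, and differences are on the log2 scale after background correction and quantile normalisation. The arrays differed in brightness, with medians of 60 to 72 and upper quartiles of 101 to 215, S-SiO2-NW 4 being the brightest by upper quartile. A feature is called dim where its intensity is at or below 2 times its array's lower quartile. Ag+ 2 held 310 features at exactly 0, which were treated as missing, and neither member was among them.

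Opsin was high and widely spread in Ag+ animals and lower in most other arrays. Opsin DM02717P2 had intensities of 221, 720, 1716 and 2209 on Ag+ arrays 1 to 4, against 100, 178, 132 and 226 on Control arrays 1 to 4. Means were 1217 ± 908 in Ag+ and 159 ± 55.0 in Control (SD, n = 4 each). Ag+ 1 lay within the Control range and the other 3 Ag+ arrays lay above it, with a 10.0-fold span between the lowest and highest Ag+ array. After normalisation all 4 Ag+ arrays were above every Control array, and the Ag+ difference was 2.13 ± 0.52 (SE) on the log2 scale, a 4.39-fold higher level. Over all features, 17.8% passed the test for Ag+ against Control in either direction, and 11.1% had every Ag+ array above every Control array, figures that say nothing about opsin because that contrast chose it. The authors' deposited table lists a log2 ratio of 2.1 for opsin in Ag+ and no ratio in the nanowire groups.

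By intensity, the highest opsin arrays outside Ag+ were S-SiO2-NW 4, L-SiO2-NW 1 and 4, and L-PVP-NW C. After normalisation, 3 of 4 arrays in each silica group and 1 of 4 in each PVP group lay above every Control array. The share of all features with as many such arrays was not counted. Silica against PVP did not pass the test for opsin (limma adjusted p = 0.339). With long PVP nanowires, opsin intensities were 146, 142, 543 and 101 on arrays A to D, and with short PVP nanowires they were 185, 234, 247 and 151 on arrays 1 to 4. Short PVP nanowires gave the tightest values of any group, with a highest over lowest ratio of 1.64, while L-PVP-NW C alone stood high among the long PVP arrays. With long silica nanowires, opsin intensities were 596, 163, 262 and 555 on arrays 1 to 4. With short silica nanowires they were 316, 296, 188 and 1253, and the last, S-SiO2-NW 4, was the highest opsin value outside Ag+. The 2 long silica arrays 1 and 4 were high and the other 2 near the Control range. Opsin was dim only on Control 1 and L-PVP-NW D.

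Opsin did not pass the test against Control in any nanowire group, and the sign in S-PVP-NW turned in 1 of 6 scalings, the 75th percentile over bright features. The log2 differences were 0.24 for L-PVP-NW (95% interval -0.85 to 1.33), 0.77 for L-SiO2-NW (-0.32 to 1.85), 0.12 for S-PVP-NW (-0.97 to 1.20) and 0.79 for S-SiO2-NW (-0.29 to 1.88), with SE 0.52 and n = 4 each. Adjusted p-values from limma were 0.944, 0.493, 0.959 and 0.417 in that order. Every one of these intervals reaches above a log2 difference of 1, so a 2-fold rise lies within each of them. Without S-SiO2-NW 4 the S-SiO2-NW difference was 0.34 (limma adjusted p = 0.806), and without L-PVP-NW C the L-PVP-NW difference was -0.10. The shares of all features past the test were 0.0279% (L-PVP-NW), 1.35% (S-PVP-NW), 0.962% (L-SiO2-NW) and 4.74% (S-SiO2-NW). The F test across Control and the 4 nanowire groups gave F = 1.02 with an adjusted p of 0.656 (limma), against 10.4% of features past it.

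The 6 group levels of opsin ran in the order Ag+, S-SiO2-NW, L-SiO2-NW, L-PVP-NW, S-PVP-NW and Control, at normalised log2 means of 9.68, 8.34, 8.31, 7.79, 7.67 and 7.55. Every pair of neighbours in that order had overlapping arrays. SDs ran from 0.12 in S-PVP-NW to 1.25 in Ag+, while the fit gives all groups 1 pooled spread. Against Ag+, opsin was lower by description in all nanowire groups, at log2 differences of -1.89 (L-PVP-NW), -2.01 (S-PVP-NW), -1.37 (L-SiO2-NW) and -1.34 (S-SiO2-NW).

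**Figure D1:**
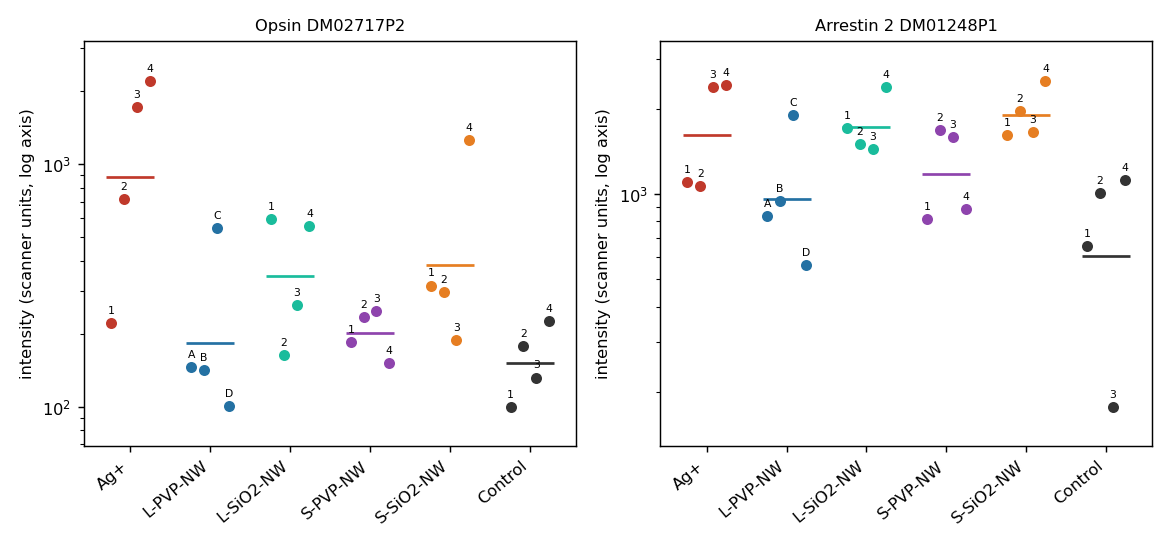
Scanner intensity (log axis) of opsin DM02717P2 and arrestin 2 DM01248P1 on each array by group, with Control on the right; numbers and letters are replicates and horizontal lines are geometric means. Opsin spans 221 to 2209 in Ag+ against 100 to 226 in Control, and Control 3 is the lowest arrestin array at 177.

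Arrestin was higher on the silica arrays than on the Control arrays, but the difference did not pass the test. Arrestin 2 DM01248P1 had intensities of 1706, 1505, 1438 and 2396 on L-SiO2-NW arrays 1 to 4 and 1620, 1962, 1658 and 2518 on S-SiO2-NW arrays 1 to 4. On Control arrays 1 to 4 it had 657, 1010, 177 and 1123. Means were 1761 ± 438 in L-SiO2-NW, 1940 ± 415 in S-SiO2-NW and 742 ± 426 in Control (SD, n = 4 each). All 8 silica arrays lay above all 4 Control arrays, also after normalisation, although the lowest L-SiO2-NW array and the highest Control array were then 10.33 and 10.32. That separation was seen for 4.87% of all features in L-SiO2-NW and 6.5% in S-SiO2-NW, and it was counted after the arrestin values had been seen. Neither member had it in L-PVP-NW (2.08% of features) or S-PVP-NW (5.16%).

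The log2 differences of arrestin from Control were 1.02 ± 0.34 in L-SiO2-NW, adjusted p = 0.135, and 1.01 ± 0.34 in S-SiO2-NW, adjusted p = 0.0929 (SE, limma). These are 2.03-fold and 2.02-fold higher levels, with 95% intervals of 0.30 to 1.74 and 0.30 to 1.73 on the log2 scale. Control 3 sets much of their size: without it the differences were 0.53 (adjusted p = 0.304) and 0.53 (adjusted p = 0.241). Scaling matters too, since S-SiO2-NW passed at 1.56 (adjusted p = 0.0325) after median centring, 1.19 (0.0232) after raw values were scaled to 1 common 75th percentile, and 0.97 (0.0261) with the same percentile over bright features. The authors' deposited table lists log2 ratios of 0.6 for L-SiO2-NW and 0.5 for S-SiO2-NW for arrestin, and no ratio for the other exposures. Arrestin was thus named through these same silica contrasts on these samples. The p-values here are therefore not independent evidence of a rise, under any scaling.

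In PVP-nanowire animals arrestin was between the silica groups and Control. Intensities were 838, 944, 1903 and 562 on L-PVP-NW arrays A to D, and 817, 1678, 1585 and 884 on S-PVP-NW arrays 1 to 4. Both groups overlapped the Control arrays. The log2 differences from Control were 0.58 (95% interval -0.14 to 1.29; limma adjusted p = 0.654) and 0.53 (-0.19 to 1.24; limma adjusted p = 0.546). Without Control 3 they were 0.09 and 0.04. In Ag+ animals arrestin intensities were 1100, 1066, 2392 and 2428 on arrays 1 to 4, against the Control values above, and the difference, as a description, was 0.91 ± 0.34 (SE), or 0.42 without Control 3. The F test across Control and the nanowire groups gave F = 3.01 with an adjusted p of 0.172 (limma).

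The order of arrestin levels differed from that of opsin. It ran L-SiO2-NW, S-SiO2-NW, Ag+, L-PVP-NW, S-PVP-NW and Control, with a gap of 0.009 between the silica groups and overlapping arrays between all neighbours. Normalised log2 means were 10.64 in L-SiO2-NW, 10.53 in Ag+, 10.20 in L-PVP-NW, 10.15 in S-PVP-NW and 9.62 in Control. The Control SD of 0.99 was the widest of any group and the S-SiO2-NW SD of 0.18 the narrowest.

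**Figure D2:**
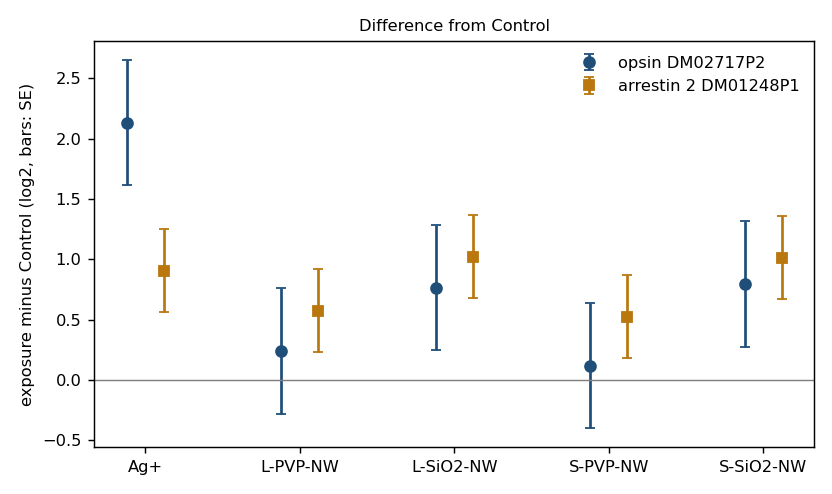
Log2 difference from Control of opsin (circles) and arrestin 2 (squares) for each exposure, with bars of 1 SE. The Ag+ difference of opsin is 2.13 and that of arrestin 0.91, and both silica groups have arrestin near 1.02.

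Coating and length of the nanowires were compared within the 4 nanowire groups. Silica minus PVP was 0.60 ± 0.37 for opsin (limma adjusted p = 0.339) and 0.47 ± 0.24 for arrestin (limma adjusted p = 0.245), where 10.2% of all features passed. Without S-SiO2-NW 4 the opsin difference was 0.37 (limma adjusted p = 0.589). With the nanowire arrays alone in the fit, the arrestin difference of 0.47 had an adjusted p of 0.0422 (limma). Long minus short was 0.05 for opsin (95% interval -0.72 to 0.81) and 0.03 for arrestin (-0.48 to 0.54), both with an adjusted p of 0.974 (limma) and 1.35% of features past the test. The interaction of coating and length was -0.15 ± 0.74 for opsin and -0.04 ± 0.49 for arrestin, with adjusted p-values of 0.996 and 0.998 (limma) and 0.0209% of features past it.

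Array floors, the 1st percentile of intensity, differed between groups and are given beside the coating result. They were 41 to 43 in L-SiO2-NW and likewise in S-PVP-NW, 42 to 45.37 in S-SiO2-NW, 48 to 50 in L-PVP-NW and 46 to 50 in Control. The correlation of normalised levels with the floor was -0.10 for opsin and -0.30 for arrestin over 24 arrays as a description. Group means were not removed, so it mixes differences between groups with those within groups. With the floor as a covariate, silica minus PVP was 0.42 for opsin (limma adjusted p = 0.825) and 0.57 for arrestin (limma adjusted p = 0.609), and opsin in L-SiO2-NW was 0.39 against Control (limma adjusted p = 0.990). The main component of the spread within groups held 26.3% of its variance and had r = 0.53 with opsin and 0.14 with arrestin. With that component as a covariate, no member passed or changed sign in any contrast tested. The correlation of the members, partial on the component, was 0.32 over the differences and 0.43 over the levels without Ag+.

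Opsin and arrestin varied together in part. Differences from the group mean had the same sign on 17 of 24 arrays. Over those differences, Pearson's r was 0.34 (permutation within groups, p = 0.0747, adjusted 0.0747) and Spearman's rho was 0.51 (p = 0.019, adjusted 0.019), with adjustment over the 2 correlations computed. Without the arrays farthest from the median, Ag+ 1 and S-SiO2-NW 4, r was 0.29. Over the levels of the 20 arrays without Ag+, r was 0.43 (permutation p = 0.068, adjusted 0.0747) and rho 0.57 (p = 0.00978, adjusted 0.019), and r was 0.40 without S-SiO2-NW 4 and L-PVP-NW C. For the levels, values were permuted across all 20 arrays without regard to group. Those p-values therefore also take in differences between groups and do not measure variation between arrays of 1 group alone. In both correlations ranks passed and values did not. Control 3, where arrestin was low and opsin was not, moves the value most among single arrays: without it r was 0.61 (permutation p = 0.00913) over the differences and 0.63 (p = 0.00345) over the levels. Without the Ag+ arrays, r over the differences was 0.17 (permutation p = 0.358).

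Many features varied with opsin as closely as arrestin did. Of 14027 features, 19.4% had a higher within-group r with opsin than arrestin did. The quartiles of r over all features were -0.28 and 0.27. Ag+ 4 was the highest Ag+ array for both members, L-PVP-NW C the highest long PVP array and, after normalisation, Control 2 the highest Control array. In the other 3 groups (S-PVP-NW and both silica groups) the normalised highest arrays of the members differed.

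**Figure D3:**
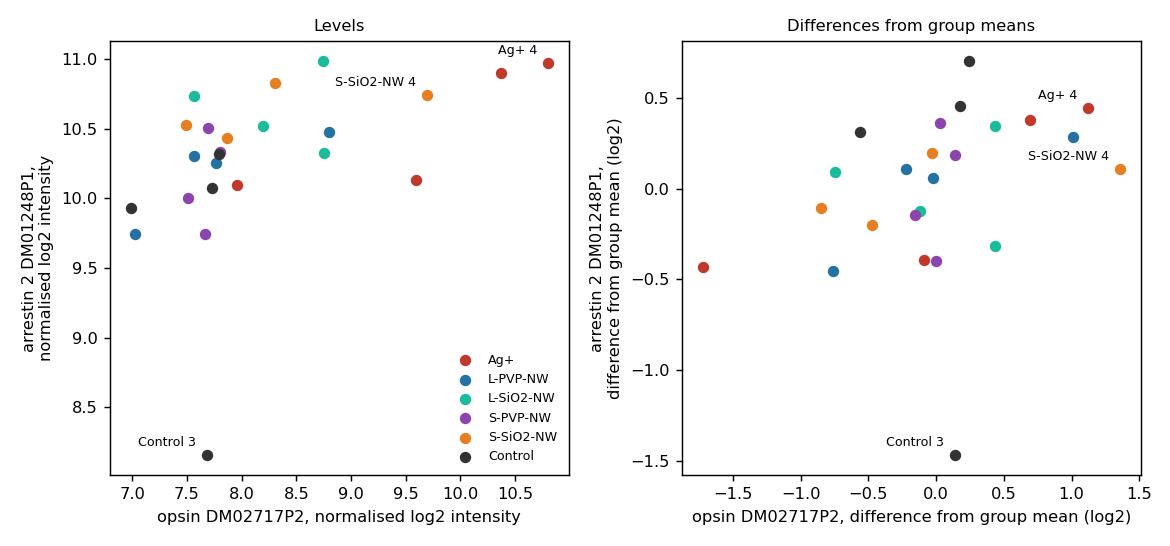
Opsin (x axis) against arrestin 2 (y axis) on the 24 arrays, as levels and as differences from the group mean. Control 3 lies low for arrestin without being low for opsin.

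The remaining features of the list carried photoreception names. Long-wavelength visual pigment DM01842P2 is a light receptor by its match to a butterfly opsin, and arrestin 1 DM03055P2 matched a mosquito arrestin. DM04283P1 and DM06155P2 matched an ultraviolet opsin and an opsin 3 in the authors' deposited table without significance, at E values of 0.94 and 0.002.

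DM01842P2 had intensities of 1127, 1491, 3096 and 575 on Ag+ arrays 1 to 4 and 1576, 1042, 966 and 1663 on L-SiO2-NW arrays 1 to 4, against 473, 528, 525 and 569 on Control arrays. Its Control arrays were close together. Ag+ 4, the highest opsin array, was the lowest Ag+ array for this pigment. Its log2 difference was 0.77 in Ag+ (limma adjusted p = 0.185) and 0.77 in L-SiO2-NW (limma adjusted p = 0.330), and with median centring the Ag+ difference was 1.36 and passed (limma adjusted p = 0.0373).

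DM06155P2 had intensities of 1200, 1937, 2524 and 1161 on Ag+ arrays and 2905, 1471, 1617 and 2124 on L-SiO2-NW arrays, against 729, 844, 635 and 857 on Control arrays. All Ag+ and L-SiO2-NW intensities exceeded those of Control, while after normalisation this held for 3 of 4 Ag+ arrays and all 4 L-SiO2-NW arrays. In L-SiO2-NW 4.87% of all features had that separation, and the authors' deposited table lists DM06155P2 only for that group. In S-SiO2-NW the intensities were 733, 1156, 751 and 3579, with a log2 difference of 0.02 and 2 arrays below every Control array after normalisation. In Ag+ and L-SiO2-NW the log2 differences of 0.55 and 0.85 did not pass (limma adjusted p = 0.308 and 0.224).

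DM04283P1 had intensities of 216, 152, 132 and 245 on L-SiO2-NW arrays and 119, 231, 162 and 334 on S-SiO2-NW arrays, against 90, 98, 57 and 119 on Control arrays. It was dim on 3 Control arrays. None of its differences passed; they ran from 0.22 in S-PVP-NW to 0.77 in L-SiO2-NW, and the sign in Ag+ and S-PVP-NW turned in 1 of 6 scalings, the 75th percentile over bright features.

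Arrestin 1 DM03055P2 had negative differences from Control in every exposure except L-SiO2-NW, and none passed the test. It had intensities of 710, 2793 and 644 on Ag+ arrays 1, 3 and 4, with Ag+ 2 missing, and 580, 845, 847 and 1584 on S-PVP-NW arrays, against 1497, 1979, 1372 and 2240 on Control arrays. After normalisation all 4 S-PVP-NW arrays were below all Control arrays. The share of all features separated downward in this way was not counted. Since the authors' deposited table lists arrestin 1 only for S-PVP-NW, the separation is not independent of how it came to be named. The log2 differences were -1.24 in Ag+ over 3 arrays (limma adjusted p = 0.138) and -1.37 in S-PVP-NW (limma adjusted p = 0.225), and the authors' deposited table lists -1.9 in S-PVP-NW. In Ag+ the difference was -1.30 and passed (limma adjusted p = 0.0416) when scaled on the 75th percentile of bright features.

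Leaving out both members, because the Ag+ contrast chose opsin, 0 of the other 4 photoreception features passed in Ag+ by limma, against 17.8% of all features. Of all 6, 0 passed in any nanowire group, against 0.0279 to 4.74% of all features. Before adjustment 1 of the 4 was under 0.05 in Ag+, and of the 6, 0 in L-PVP-NW, 1 in S-PVP-NW, 3 in L-SiO2-NW and 2 in S-SiO2-NW. Of all 14338 features, 4370 were under 0.05 before adjustment in Ag+, 1331 in L-PVP-NW, 1929 in S-PVP-NW, 2348 in L-SiO2-NW and 2965 in S-SiO2-NW. Both silica counts of the list include arrestin, which was named through those contrasts. Median log2 differences of all 6, members included, were 0.66 (Ag+), 0.44 (L-PVP-NW), 0.20 (S-PVP-NW), 0.77 (L-SiO2-NW) and 0.54 (S-SiO2-NW). The medians over all features were 0.01 at most. The Ag+ median holds opsin at 2.13 and arrestin at 0.91, and that contrast chose opsin, so it is a description only. With median centring the medians of all 6, members again included, were 1.24 (Ag+), 0.45 (L-PVP-NW), 0.47 (S-PVP-NW), 1.13 (L-SiO2-NW) and 0.99 (S-SiO2-NW). The authors selected the features they named on these samples, so the list is not independent evidence of a direction. Some arrays stood out across the list. L-PVP-NW C and S-SiO2-NW 4 were the highest of their group for 6 of 6 features by intensity and L-PVP-NW D the lowest for 6 of 6, or 5 of 6 each after normalisation. L-PVP-NW C and S-SiO2-NW 4 were also the brightest arrays of their groups, with upper quartiles of 165 and 215. Control 4, with the highest Control upper quartile of 158, was the highest Control array for 6 of 6 features by intensity and for 1 of 6 after normalisation. The part of brightness in the order of the other arrays was not tested.

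**Figure D4:**
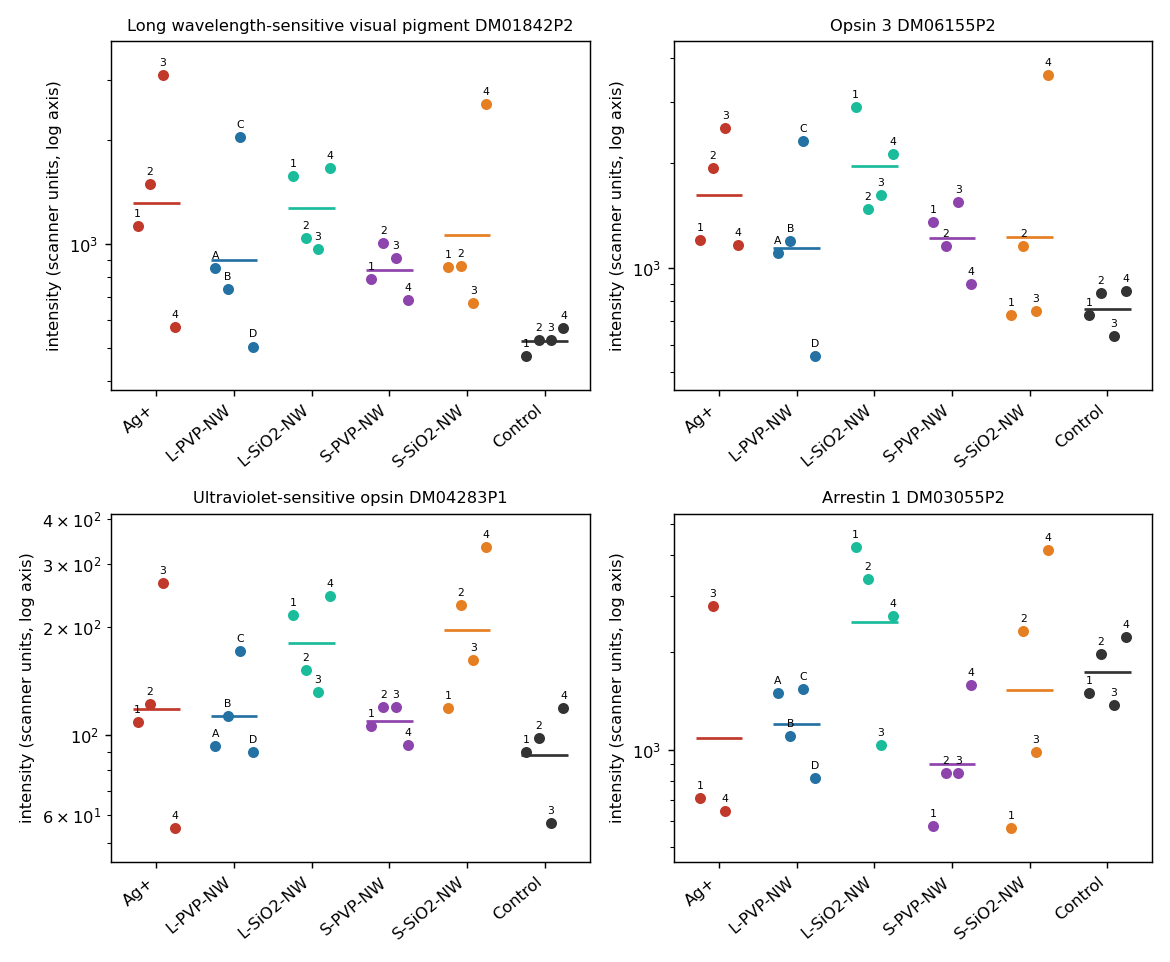
Scanner intensity (log axis) of the other photoreception features on each array by group, with Control on the right; numbers and letters are replicates and lines are geometric means. DM01842P2 spans 575 to 3096 in Ag+ against 473 to 569 in Control.

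The described features with patterns most like opsin over the 24 arrays, among 420 with a significant match, were a chitin-binding protein DM00251P1 (r = 0.90), helmsman DM00005P1 (0.88), a predicted protein DM02453P3 (0.85), purine nucleoside phosphorylase DM02497P3 (0.84) and dopa decarboxylase DM02360P4 (0.83). Purine nucleoside phosphorylase recycles purines, and dopa decarboxylase makes dopamine, used in nerve cells and in cuticle hardening. Dopa decarboxylase read 68 to 88 in Ag+ and 48 to 64 in Control, dim on all of those arrays. DM02453P3 was dim on all Control arrays, at 53 to 74. For DM00251P1 the intensities spanned 330 to 1692 in Ag+ against 128 to 269 in Control. Their r of differences from group means was 0.64 to 0.78. Arrestin 2 ranked 73rd in this order.

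The patterns most like arrestin 2 were a folate receptor DM00876P2 (r = 0.86), DM02595P4 (0.84), DM00492P2 (0.83), polyubiquitin DM01627P1 (0.82) and DM01360P2 (0.82). Polyubiquitin encodes the tag that marks proteins for the proteasome. All 5 were far lower on Control 3 than on the other Control arrays. Polyubiquitin read 53 there, against 8807 to 10908 on the other 3. Without Control 3, a comparison added after these values were seen, r fell to between 0.45 and 0.59. Control 3 was more than 1 log2 unit below its group mates for 176 of 14028 features (1.25%), the highest share of any array, the range over arrays being 0.0784 to 1.25%, and the cause was not tested.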

How the data were processed

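RNA of whole animals was labelled with Cy3 from 300 ng by an Agilent one-colour kit, per the labels' protocols. The intensity values are whole scanner numbers deposited by the authors without scaling between arrays, as the values show. The log2 ratios of exposure over control and the E value scores were made by the authors and deposited in 1 table, whose normalisation and test, like the scanner settings, are not stated there. Exact 0 values were set missing. Intensities were corrected by normexp (offset 50), put on log2 and quantile-normalised; the offset understates differences of dim features. In R 4.3.3 with limma 3.58.1, 1 mean per group was fitted over all 24 arrays with eBayes (prior df 1.59), and two-sided p-values were adjusted by Benjamini-Hochberg over 14338 features at 0.05. Correlations used 100000 two-sided permutations, within groups for the differences and across groups for the levels. Arrays limit precision by their number: 4 against 4. The code was tested on simulated data.

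Named features were the members, features with a photoreception or neuronal word in the authors' description (6 and 3 features), and the 5 described features (E of 0.001 or less) most correlated with each member. Members and lists were chosen with earlier results of these data known. Alternatives were other scalings and offsets, filters, fits, covariates, a replicate block and leaving out each array. Same-numbered arrays deviated together, with every r over 0.1, between Ag+ and Control (0.127 to 0.410) and between Ag+ and S-SiO2-NW (0.264 to 0.429). A replicate block changed no call in Ag+ against Control for the photoreception features tested there or for DM00932P3. In the other 8 pairs of groups not all 4 did, and r was as low as -0.446. The numbers were therefore not taken to pair nanowire with Control arrays, and the block changed no member's call there. The numbers were still not without structure. Scores on the main component of the spread within groups alternated in sign with replicate number in every numbered group. Odd-numbered arrays scored negative for Control, Ag+ and short silica nanowires, but positive for long silica and short PVP nanowires. A block that shifts each number equally in all groups cannot remove such a pattern. Its cause was not tested.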

Additional observations from a re-analysis of the deposited data

Results flagged for a closer look

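Dixon's test, the gap of an extreme array to its nearest neighbour over the whole range of its group, was run for both members in all groups on intensities and on normalised log2 values, and chance marks about 1 in 20 groups. Opsin on L-PVP-NW C had an intensity of 543 against 101 to 146 on the other arrays, a ratio of 0.8982. Opsin on S-SiO2-NW 4 had 1253 against 188 to 316, a ratio of 0.8798. Opsin on Control 1, a dim value of 100, was low on the log2 scale with a ratio of 0.8699. The first pair was not marked on the log2 scale, nor the last on intensities.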

How the results depend on the processing

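Over all results and alternatives, 686 values stayed the same, 30 changed sign, 15 newly passed the test and 13 moved. For tested values, the same means that direction and side of the threshold were kept. For values and counts without a test, it means a change within a set limit, and moved means a larger change. Arrestin in S-SiO2-NW passed at 1.56 (median centring), 1.19 (common 75th percentile, raw) and 0.97 (the same over bright features), its F test passed at 3.84 (75th percentile, raw), and silica minus PVP passed at 0.47 with the arrays compared alone. Arrestin in Ag+ moved to 1.44 with median centring. Values near 0 changed sign. Long minus short was -0.13 for opsin and -0.19 for arrestin with median centring, and for arrestin -0.048 (75th percentile, raw) and -0.0569 (array floor as a covariate); leaving out single arrays gave -0.122 to 0.272 and -0.0372 to 0.105. The interaction was 0.0238 for opsin with array weights (-0.43 to 0.30 leaving out arrays) and, for arrestin, 0.0566 with median centring, 0.0386 (75th percentile, raw) and 0.27 (floor), or -0.192 to 0.0923 leaving out arrays. Opsin in S-PVP-NW was -0.0475 (75th percentile, bright) and -0.23 (floor), or -0.068 to 0.200 leaving out arrays, and in L-PVP-NW -0.0967 to 0.497. The correlations passed at 0.58 and 0.69 (median centring), 0.37 and 0.48 (75th percentile, raw) and 0.60 and 0.58 (without Control), ran from 0.26 to 0.61 and from 0.37 to 0.63 leaving out arrays, and did not pass at 0.17 (differences without Ag+) or 0.37 (levels, partial on the floor). With median centring, 1 of the 4 photoreception features that are no members passed in Ag+ (16.7% of all features). In S-SiO2-NW 1 of 6 then passed (10.5%), which was arrestin, named through the silica contrasts. Of the 3 neuronal features, 1 then passed in L-SiO2-NW (0.732% of all features) and 0 in S-PVP-NW (1.05%). In the main fit their 1 call in S-PVP-NW, where 1.35% of all features passed, was the dim DM00003P1. With median centring, opsin in S-SiO2-NW was 1.24 and silica minus PVP for arrestin 0.71, neither past the test. Opsin and arrestin 1 had r = -0.03, or 0.25 without Ag+ 4. The causes were not tested. With a replicate block over the 20 numbered arrays, arrestin was 1.02 in L-SiO2-NW (limma adjusted p = 0.196) and 1.01 in S-SiO2-NW (0.142), and 481 features passed in S-SiO2-NW, against 598 without it.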

Other observations

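Of the 3 features with neuronal words, 4-aminobutyrate aminotransferase DM00932P3, an enzyme of GABA breakdown, rose in Ag+ by 1.88 on the log2 scale (limma adjusted p = 0.00224). Of all features, 17.8% passed in that contrast. The authors' deposited table lists DM00932P3 only for Ag+, at 1.8, so the test repeats the contrast that named it and is not independent evidence. Nicotinic acetylcholine receptor beta 1 DM00003P1 was dim on all arrays, so no direction is given for it. DM04454P3, whose match was not significant, had intensities of 3169, 844, 591 and 75 on L-PVP-NW arrays A to D, against 56, 61, 48 and 58 on Control arrays, all of which were dim. The difference did not pass (limma adjusted p = 0.0621).

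Ag+ 4 was the highest Ag+ array for both members and the lowest for the other 4 photoreception features. Over all 24 arrays the r of levels with opsin was 0.42 for DM01842P2, 0.46 for DM06155P2 and 0.18 for DM04283P1. Without Ag+ 4, left out after its values were seen, r was 0.82, 0.69 and 0.64. These are descriptions of arrays that share groups.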
